A study of Mus musculus with 137 samples.

Results

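The genes described are 10 members of the extracellular matrix turnover machinery of macrophages: 6 matrix metalloproteases (Mmp8, Mmp9, Mmp12, Mmp13, Mmp14 and Mmp19), 2 of their tissue inhibitors (Timp1 and Timp2), the matrix protein osteopontin (Spp1) and the cell-surface proteoglycan syndecan-1 (Sdc1). They were taken by name, and all 10 were found among the 34573 gene symbols that the count tables share. The cells were bone marrow-derived macrophages grown from 7-week-old mice for 7 days with the growth factor M-CSF at 20 ng/ml and re-plated on day 7. They were harvested at 0 h, or 6 h and 24 h after LPS at 100 ng/ml plus IFN-gamma at 100 ng/ml, a pair of stimuli that drives inflammatory (M1) activation. In 2 cohorts, KO1 and KO2, knockout cells (KO) had the genotype Beclin1flox/flox-LysM-Cre+ and their wild-type controls (WT) Beclin1flox/flox-LysM-Cre-, so both carry the floxed alleles and only KO cells carry the Cre, which is driven from the lysozyme M locus of myeloid cells. In the cohort KI, F121A cells had the genotype Beclin1F121A/F121A, a whole-body amino acid change in Beclin1, and WT cells came from littermates. KO1 has 3 numbered sources per genotype (S36 to S38 for KO, S33 to S35 for WT), each with 3 repeats per time whose counts were summed, so n = 3 per group. KO2 has 8 libraries per group, or 7 in WT at 24 h, and KI has 6 per group. The labels do not say whether libraries of KO2 and KI came from separate mice or cultures, so their p-values measure the spread between these libraries, which may be technical.

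Matrix metalloproteases are zinc enzymes that are made as inactive precursors and, once activated, cut collagens, elastin, other matrix proteins and many soluble proteins. The tissue inhibitors bind their active sites, and the balance between enzyme and inhibitor sets how much matrix is cut. Macrophages are a main source of several of them in inflamed tissue. Osteopontin is a secreted matrix protein that binds integrins and CD44, and syndecan-1 carries heparan sulfate chains that hold chemokines and growth factors at the cell surface.

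Of the 10 genes, 3 lie in 1 gene cluster: on GRCm38, Mmp13 (collagenase-3) is at chr9:7272514-7283331, Mmp12 (macrophage elastase) at chr9:7344381-7369499 and Mmp8 (neutrophil collagenase) at chr9:7558456-7568485, all on the plus strand. They belong to 10 neighbouring Mmp genes that span 427072 bases, from Mmp13 to Mmp7. The others are scattered: Mmp9 (gelatinase B) at chr2:164940780-164955850, Mmp14 (a membrane-bound protease) at chr14:54431612-54445364, Mmp19 at chr10:128790910-128800824, Spp1 at chr5:104435118-104441050, Sdc1 at chr12:8771323-8793715 and Timp1 at chrX:20870166-20874735, all on the plus strand, and Timp2 at chr11:118301069-118355740 on the minus strand. Positions are from GENCODE vM21, in which Timp1 lies inside the neuronal gene Syn1 without sharing exon bases. Mmp19 shares 789 exon bases (22.3% of its exons) with Tmem198b on the opposite strand, and Mmp12 shares 157 with Mmp1b. The reads carry no strand, so the origin of reads in those shared bases is uncertain.

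Promoter sequences, 250 bases before to 50 after a start site, were matched in RefSeq (GRCm38.p6) for 8 of the 10 members, in 10 windows. The windows of Mmp13, Mmp12 and Mmp8 are printed because these 3 neighbours differed together between KO and WT at 24 h in KO2. Capitals mark the AP-1 letters TGACTCA and the TATA letters TATAAA, on either strand (their reverse complements are TGAGTCA and TTTATA), in the windows Mmp13 at chr9:7272264-7272563, Mmp12 at chr9:7347124-7347423 and Mmp8 at chr9:7558179-7558478, all plus strand, 5′ to 3′.
Mmp13: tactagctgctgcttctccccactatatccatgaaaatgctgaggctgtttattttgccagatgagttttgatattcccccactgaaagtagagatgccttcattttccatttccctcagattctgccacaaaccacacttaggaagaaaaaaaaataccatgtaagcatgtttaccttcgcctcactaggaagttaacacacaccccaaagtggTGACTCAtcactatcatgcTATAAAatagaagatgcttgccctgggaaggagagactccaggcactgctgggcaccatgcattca
Mmp12: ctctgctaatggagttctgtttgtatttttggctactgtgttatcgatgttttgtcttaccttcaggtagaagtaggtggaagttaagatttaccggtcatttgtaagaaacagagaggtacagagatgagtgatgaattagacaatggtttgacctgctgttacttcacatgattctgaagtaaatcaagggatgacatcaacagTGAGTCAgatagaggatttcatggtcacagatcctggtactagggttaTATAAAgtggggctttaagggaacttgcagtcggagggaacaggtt
Mmp8: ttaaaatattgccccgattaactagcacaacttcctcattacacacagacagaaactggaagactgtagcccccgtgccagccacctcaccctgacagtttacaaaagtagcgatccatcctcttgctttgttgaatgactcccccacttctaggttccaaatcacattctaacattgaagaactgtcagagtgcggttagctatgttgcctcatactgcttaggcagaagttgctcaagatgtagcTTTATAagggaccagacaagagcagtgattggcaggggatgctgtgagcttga
The AP-1 letters began 35 bases before the start site in Mmp13 and 44 before it in Mmp12, and were not found in the Mmp8 window or in the second Mmp12 window. TATA letters began 16 bases before the start in Mmp13, 3 before it in Mmp8, and 4 after it in the printed Mmp12 window. Over 32851 promoter windows of the same length, 5.2% held the AP-1 letters and 13.6% the TATA letters. None of the 10 windows held the NF-kB motif (0.411% of all windows) or the GAS letters TTCNNNGAA (8.3%), searched on both strands. The ISRE motif (3.44% of all windows) and the RUNX letters AACCACA (5.27%) were both found in the Mmp13 window and in 1 Spp1 window, and the PU.1 letters GAGGAAGT (3.2%) in the Mmp8 window, the second Mmp12 window and the same Spp1 window. No motif searched was found in the windows of Mmp14, Timp1, Timp2 and Sdc1. A match of letters is a description and not evidence of binding.

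Per library, KO1 had 1898574 to 6579185 counts in genes, KO2 had 1448218 to 15627379, and KI 3574158 to 11786453. Levels below are CPM, counts brought to a common library total after TMM scaling within a cohort, and levels of different cohorts come from separate tables. Becn1, the targeted gene, had 8.88 to 14.3 CPM in KO against 25.6 to 36.9 CPM in WT in KO1, 1.35 to 5.41 CPM in KO against 18.2 to 49.6 CPM in WT in KO2, and 23.9 to 49.4 CPM in F121A against 27.3 to 46.8 CPM in WT in KI. In KO2 every KO library carried the Y-linked Ddx3y (6.38 to 25.2 CPM, at most 0.694 CPM in WT), while Xist stood at no more than 1.46 CPM in KO and at 105 to 235 CPM in WT. Effects of sex and of genotype therefore cannot be told apart there. In KO1 both genotypes carried Ddx3y (14.9 to 29.7 CPM, with Xist at most 1.61 CPM). In KI both had Xist (64.5 to 228 CPM, with Ddx3y at most 0.527 CPM). Lyz2, the lysozyme M gene that drives the Cre, was lower in KO at 0 h in both knockout cohorts. Its mean was 11025 CPM in KO against 18853 CPM in WT in KO1, and 11646 against 33331 CPM in KO2. The WT controls carry no Cre, so effects of the Cre and of Beclin1 loss cannot be told apart in either. Macrophage markers were abundant in all groups, and summed fibroblast markers did not pass 33.5 CPM in any library. In bulk RNA, fewer cells of a type and less RNA per cell cannot be told apart, which holds for every level below. TMM factors were higher at 0 h (1.18 to 2.07) than at 6 h (0.574 to 0.922) or 24 h (0.741 to 1.14), so without TMM the median log2 fold change over all genes ran from -1.37 to -0.47 for either later time over 0 h. Time-course directions that turn without TMM are named as such.

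The 10 genes covered a wide range of levels, and their order changed with stimulation. Per kilobase of exon, Spp1 stood first and Mmp12 second in resting WT cells of every cohort: in KO2, Spp1 had 834 ± 86.1 CPM per kb and Mmp12 44.4 ± 7.59 (SD, n = 8). Below them came Sdc1 (25.5 ± 2.15), Mmp8 (12.2 ± 1.43), Timp2 (7.38 ± 0.693), Mmp13 (2.45 ± 0.679), Mmp19 (2.06 ± 0.439), Mmp14 (1.72 ± 0.416), Timp1 (0.907 ± 0.387) and Mmp9 (0.0765 ± 0.130). Neighbours from Mmp13 to Mmp14 in that order differed by less than their spread. At 6 h Mmp13 was first in WT cells of every cohort, at 2822 ± 530 CPM per kb in KO2, and Spp1 second, at 697 ± 134 (SD, n = 8). At 24 h the first place differed between cohorts: Spp1 in WT of KO1 (46.9 CPM per kb), Mmp14 in WT of KO2 (40.3 ± 8.12, n = 7) and Mmp13 in WT of KI (111). These ranks depend on the exon length used, the merged exons of all transcripts of a gene (7237 bases in Mmp12, 2673 in Mmp13). Without division by length, Mmp12 (mean 448 CPM) stood above Mmp13 (296 CPM) in WT of KI at 24 h. In KO2 KO cells at 24 h, Sdc1 (64.1 ± 13.2), Mmp13 (62.2 ± 12.9) and Spp1 (56.7 ± 11) led, within each other's spread (SD, n = 8).

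**Figure D1:**
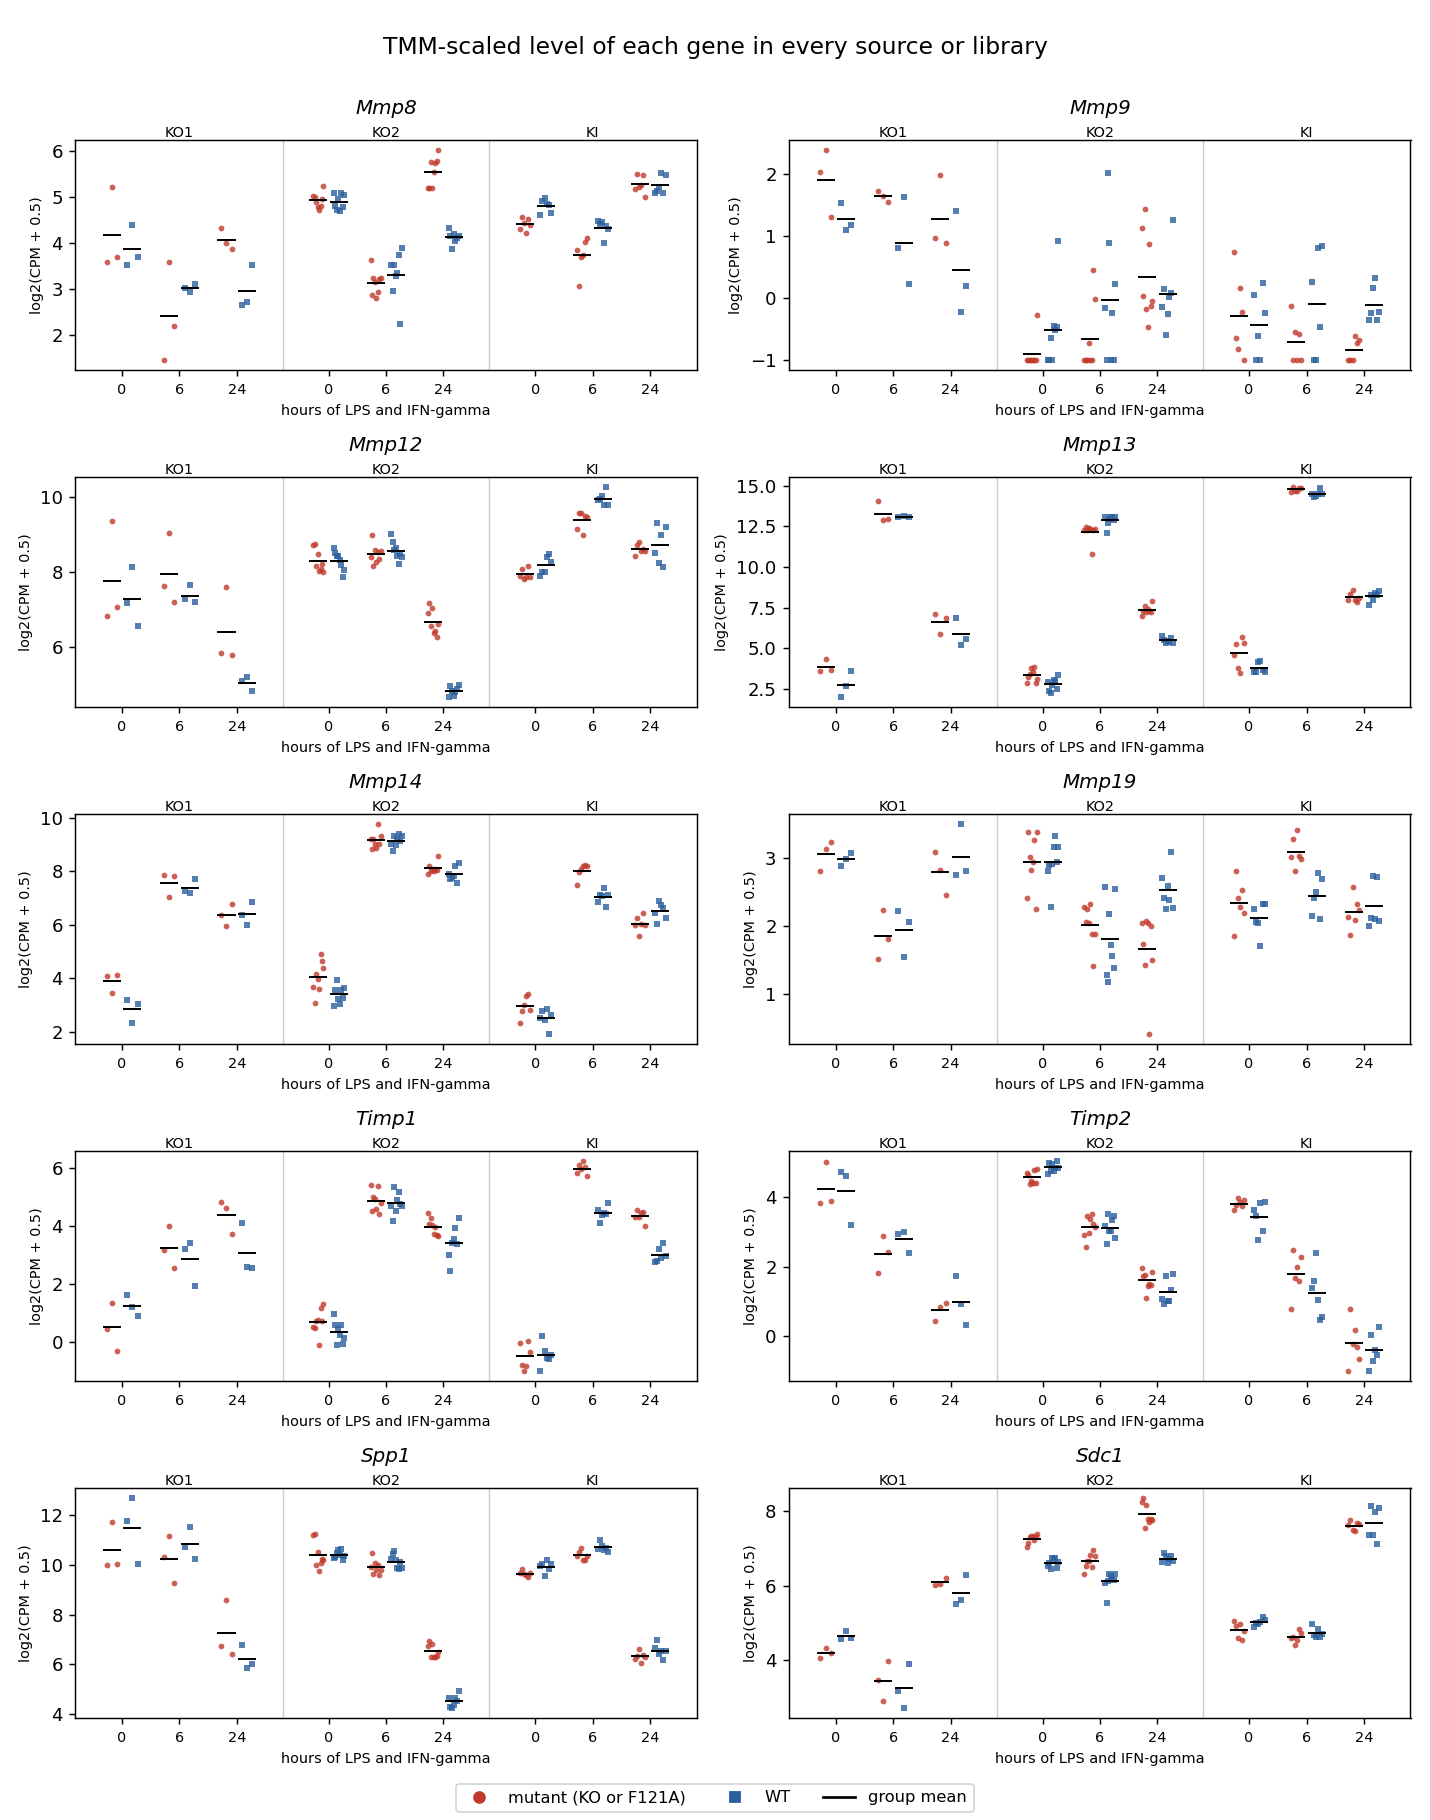
Levels of the 10 genes as log2(CPM + 0.5), 1 panel per gene, by cohort and time, with mutant cells (red circles) left of WT cells (blue squares) and a black line at each group mean. Mmp13 stands lowest at 0 h and highest at 6 h in every cohort and genotype, and Mmp9 lies at or near the floor in KO2 and KI.

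In WT cells, stimulation raised Mmp13, Mmp14 and Timp1 and lowered Timp2 in all 3 cohorts at both times, and lowered Spp1 by 24 h; the Timp1 rise in KO1 was not called without TMM, the scaling of libraries by trimmed means. A gene is said to have risen or fallen where the adjusted p was under 0.05 (edgeR's quasi-likelihood test, Benjamini-Hochberg adjustment over all genes tested). At 6 h against 0 h, 6 of 10 members in KO1, 7 of 9 in KO2 and 7 of 9 in KI were called in WT, beside 56.7%, 70.8% and 73.5% of all genes. At 24 h against 0 h the counts were 7 of 10, 7 of 9 and 8 of 9, beside 41.9%, 59.3% and 63.8%. At 24 h against 6 h they were 7 of 10, 9 of 9 and 8 of 9, beside 54.6%, 59% and 65.4%. In mutant cells the counts at 6 h against 0 h were 7 of 10 in KO1 KO (55.3% of all genes), 8 of 9 in KO2 KO (74.3%) and 8 of 9 in F121A (74.5%), at 24 h against 0 h 6 of 10 (38.5%), 9 of 9 (58.3%) and 8 of 9 (66.3%), and at 24 h against 6 h 7 of 10 (48.1%), 8 of 9 (55.5%) and 9 of 9 (65.1%). Most genes of these cells changed with stimulation, so such counts say little about the members. Mmp9 was too low to be tested in KO2 and KI, which leaves 9 genes there.

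Mmp13, the main collagenase of mouse tissues, had the widest swing of the 10. In WT cells of KO1 at 0, 6 and 24 h it had 3.54, 5.85 and 11.7 CPM, then 8552, 9063 and 8559, then 116, 36.6 and 48.0. In WT of KO2 the lowest, median and highest values were 4.36, 6.70 and 9.64 CPM at 0 h, 4427, 8076 and 8530.1 at 6 h, and 38.8, 43.8 and 52.6 at 24 h. In WT of KI they were 11.1, 11.7 and 17.9 CPM, then 20508, 22519 and 28920, then 204, 306 and 365. The times did not overlap in any cohort, and all libraries at 24 h lay between those of 0 h and 6 h. The log2 fold change at 6 h over 0 h was 10.28 ± 0.73 (SE) in KO1, 10.18 ± 0.24 in KO2 and 10.76 ± 0.33 in KI, and at 24 h over 0 h 3.25 ± 0.54, 2.77 ± 0.19 and 4.47 ± 0.25. Mutant cells followed the same course, with log2 fold changes at 6 h over 0 h of 9.51 in KO1 KO, 8.86 in KO2 KO and 9.89 in F121A cells.

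Mmp14, which sits in the cell membrane and activates the precursor of gelatinase A, rose at 6 h over 0 h by a log2 fold change of 4.62 ± 0.35 in WT of KO1, 5.78 ± 0.19 in KO2 and 4.63 ± 0.19 in KI. At 24 h over 0 h it was still higher, by 3.64, 4.54 and 4.11. In WT of KO2 its levels (lowest, median, highest) were 7.25, 10.2 and 14.8 CPM at 0 h, 434, 569 and 672 at 6 h, and 187, 225 and 320.0 at 24 h, so the times did not overlap. Timp1, a secreted inhibitor of most metalloproteases, was near the floor at rest in KO2 (0.422, 0.772 and 1.45 CPM) and reached 17.7, 26.1 and 39.96 CPM at 6 h and 4.99, 10.1 and 19.1 CPM at 24 h in WT. Its log2 fold change at 6 h over 0 h was 1.93 ± 0.58 in WT of KO1 (adjusted p = 0.0898 without S34, and 0.944 with an adjusted p of 0.211 without TMM), 5.0 ± 0.25 in KO2 and 6.15 ± 0.27 in KI. At 24 h over 0 h it was 2.25 in KO1 (1.76 and an adjusted p of 0.0595 without S33, and 1.24 and 0.0865 without TMM), 3.70 in KO2 and 4.66 in KI. The resting KI level rests on 15 counts in all F121A libraries and 20 in all WT libraries, so that fold depends on very few reads.

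Timp2, which inhibits metalloproteases and also takes part in the activation of gelatinase A by Mmp14, went the other way from Timp1. In WT of KO2 its lowest, median and highest values were 24.9, 28.2 and 32.6 CPM at 0 h, 5.81, 8.11 and 11 at 6 h, and 1.40, 1.6 and 2.96 at 24 h, with no overlap between times. Its log2 fold change at 6 h over 0 h was -1.58 ± 0.43 in WT of KO1, -1.78 ± 0.14 in KO2 and -2.43 ± 0.31 in KI. At 24 h over 0 h it was -3.56, -3.92 and -5.28. The KI value depends on very few reads, as all WT libraries at 24 h held 12 counts of Timp2.

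Spp1 changed less at 6 h than at 24 h, when it was low in every cohort. In WT of KO2 it had 1194, 1332 and 1601 CPM at 0 h, 906, 1138 and 1512 at 6 h, and 18.6, 22.6 and 29.9 at 24 h (lowest, median, highest). The 24 h libraries lay far below both earlier times. The log2 fold change at 24 h over 0 h was -5.60 ± 0.81 in WT of KO1, -5.93 ± 0.20 in KO2 and -3.39 ± 0.12 in KI. At 6 h over 0 h it was -0.93 (adjusted p = 0.244) in KO1, -0.26 (adjusted p = 0.123) in KO2 and 0.76 in KI, where it rose (adjusted p = 1.07e-07 by edgeR's quasi-likelihood test) and reversed to -0.44 without TMM.

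Mmp12, which cuts elastin, did not move in the same direction in all cohorts at 24 h, and the difference between cohorts was not tested. In WT it fell at 24 h against 0 h by a log2 fold change of -2.39 in KO1 and -3.51 in KO2, but was higher by 0.61 in KI, which became -0.27 without TMM. In KO1 that fall was not called without S34 (-1.93, adjusted p = 0.0733). At 6 h it rose in WT of KI by 1.77 and was not called in KO1 (-0.05) or KO2 (0.26, adjusted p = 0.0577, and -0.57 without TMM). Mmp8 fell at 6 h against 0 h in WT of KO2 (-1.6) and KI (-0.49), and stood at -0.95 in KO1 (adjusted p = 0.0956), where the fit with the source number as a replicate block gave -0.93 (adjusted p = 0.035). In KO1 KO cells at 24 h over 6 h, the same fit gave -1.57 for Mmp12 (adjusted p = 5.93e-05, and 0.0509 without the block) and 1.23 for Timp1 (adjusted p = 0.00274, and 0.0685 without it). Sdc1 fell at 6 h in WT of KO1 (-1.34) and KO2 (-0.48). In WT of KI it stood at -0.28 at 6 h over 0 h (adjusted p = 0.0516), and each of the 9 alternatives called it lower there, at -0.29 to -1.48. It was higher at 24 h than at 6 h in all 3 cohorts, by 2.55, 0.59 and 2.99. Mmp19, a soluble protease of basement membrane components, fell at 6 h in WT of KO1 (-1.11) and KO2 (-1.15) and was 0.36 in KI (adjusted p = 0.0868, and -0.84 without TMM).

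Mmp9 was barely expressed. Its highest library in KO2 and KI had 3.51 CPM, and its counts summed over all libraries of a group there came to between 2 and 32. In KO1 it had 3.56, 4.70 and 1.97 CPM in KO against 2.38, 1.63 and 1.75 CPM in WT at 0 h, 2.78, 2.61 and 2.42 CPM in KO against 1.24, 2.59 and 0.663 CPM in WT at 6 h, and 1.46, 3.43 and 1.35 CPM in KO against 2.14, 0.355 and 0.642 CPM in WT at 24 h. The groups overlapped at every time, and no difference between KO and WT was detectable at this depth. In KI at 24 h, every F121A library (0 to 0.156 CPM) lay below every WT library (0.279 to 0.754 CPM), at counts too low to test.

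Between genotypes, the most marked differences stood in KO2 at 24 h, where 5 of the 9 tested members rose and 1 fell in KO cells. The counts of called members in KO2, KO against WT, were 3 of 9 at 0 h, 2 of 9 at 6 h and 6 of 9 at 24 h, beside 8.28%, 15.4% and 11.3% of all genes. At 24 h, 6.26% of all genes were called higher and 5.06% lower in KO. The genes were chosen with such results known, so these counts are a description. Those higher at 24 h were Mmp13, Mmp12, Mmp8, Spp1 and Sdc1, and the lower one was Mmp19.

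At 24 h in KO2, Mmp13 had 125, 153 and 236 CPM (lowest, median, highest) in KO against 38.8, 43.8 and 52.6 CPM in WT. Its neighbour Mmp12 had 77.3, 95.6 and 144 CPM in KO against 25.2, 28 and 31.2 CPM in WT. Mmp8, the third of the cluster, had 36.1, 49.6 and 64.6 CPM in KO against 14, 17.2 and 19.4 CPM in WT. In all 3 genes every KO library lay above every WT library. How many of all genes separate in this way was not counted, here or in the other cohorts. The log2 fold changes were 1.90 ± 0.17 for Mmp13 (SE, adjusted p = 4.81e-13), 1.89 ± 0.14 for Mmp12 (adjusted p = 4.6e-16) and 1.49 ± 0.14 for Mmp8 (adjusted p = 5.58e-13), by edgeR's quasi-likelihood test. Over time, Mmp8 was higher at 24 h than at 0 h in KO (log2 fold change 0.66, but 0.0376 with an adjusted p of 0.827 without TMM) and lower in WT (-0.80), and Mmp12 fell less in KO (-1.63) than in WT (-3.51).

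Spp1 had 77.3, 85.4 and 123 CPM in KO against 18.6, 22.6 and 29.9 CPM in WT at 24 h, again without overlap, a log2 fold change of 2.05 ± 0.17 (adjusted p = 4.54e-14 by edgeR's quasi-likelihood test). Over time it fell by a log2 fold change of -3.95 from 0 h to 24 h in KO, beside -5.93 in WT. Sdc1 was the only member of the 9 to rise in KO2 KO cells at all 3 times, and its groups did not overlap at any. At 0 h it had 131, 157 and 166 CPM in KO against 86.8, 97.6 and 107 CPM in WT, at 6 h 79.4, 100.4 and 124 CPM against 45.6, 71.4 and 78.7 CPM, and at 24 h 186, 218 and 323 CPM against 95.9, 103 and 116 CPM. The log2 fold changes were 0.65 ± 0.10, 0.54 ± 0.10 and 1.22 ± 0.10 (adjusted p = 2.07e-06, 9.32e-05 and 5.04e-14 by edgeR's quasi-likelihood test).

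Mmp19 was lower in KO at 24 h, at 0.832, 3.17 and 3.71 CPM against 4.25, 4.79 and 7.97 CPM in WT, without overlap but at low counts. Its log2 fold change was -0.90 ± 0.23 (adjusted p = 0.00452 by edgeR's quasi-likelihood test). The inhibitors and Mmp14 were not called at 24 h: Timp1 had a log2 fold change of 0.47 ± 0.19 (adjusted p = 0.105), Timp2 of 0.42 ± 0.20 (adjusted p = 0.195) and Mmp14 of 0.21 ± 0.15 (adjusted p = 0.448). Timp1 is X-linked, and the KO2 groups differ in sex.

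Within the KO libraries at 24 h, libraries 1, 2 and 5 were the highest for Mmp12 (120.0, 144 and 131 CPM), Spp1 (107, 123 and 113 CPM) and Sdc1 (301, 323 and 283 CPM). The same 3 were the lowest for Mmp8 (36.1, 36.1 and 36.3 CPM). The other 5 KO libraries also lay above all WT libraries for each of these 4 genes.

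**Figure D2:**
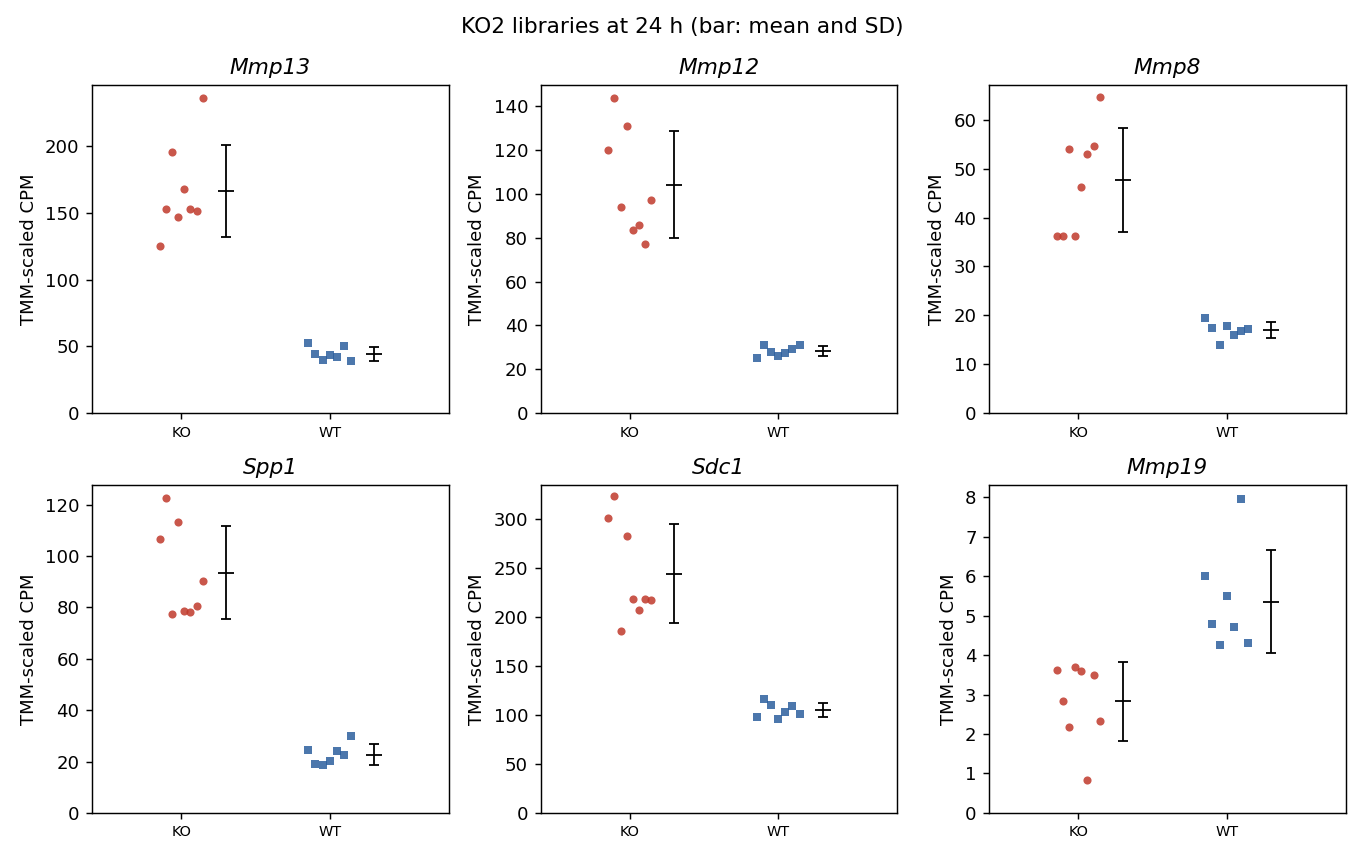
CPM of the 6 genes called in KO2 at 24 h, with KO libraries left of WT libraries, and the group mean with its SD. For Mmp13, Mmp12, Mmp8, Spp1 and Sdc1 all 8 KO libraries lie above all 7 WT libraries, and for Mmp19 all lie below. How many of all genes separate in this way was not counted.

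Earlier times in KO2 gave fewer and smaller differences. At 0 h Mmp14 had 7.82, 16.3 and 29.8 CPM in KO against 7.25, 10.2 and 14.8 CPM in WT, with overlap, and a log2 fold change of 0.76 ± 0.18 (adjusted p = 0.00202 by edgeR's quasi-likelihood test). Mmp13 at 0 h had 6.65, 9.51 and 14.2 CPM in KO against 4.36, 6.70 and 9.64 CPM in WT, also overlapping, at 0.64 ± 0.20 (adjusted p = 0.0284). Summing libraries in runs of neighbouring numbers, a choice made after seeing the data, gave 0.63 for that gene (adjusted p = 0.0559). Such sums leave fewer units per group. At 6 h, its peak, Mmp13 was lower in KO: 1785, 5001 and 5654 CPM against 4427, 8076 and 8530.1 CPM in WT, a log2 fold change of -0.68 ± 0.16 (adjusted p = 0.00125). The groups overlapped at 1 WT library, number 2 (4427 CPM). Mmp13 in KO cells was thus above WT at rest, below WT at the peak and above WT after it, and its genotype effect changed with time (adjusted p = 5.36e-12 for genotype by time). Genotype by time was called for 6 of 9 members (11.9% of all genes): Mmp12 (adjusted p = 1.37e-12), Mmp13, Spp1 (3.06e-11), Mmp8 (1.3e-09), Sdc1 (0.000788, and 0.0655 without TMM) and Mmp19 (0.0331).

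Marker lists also differed between KO and WT in KO2, but not always at the times of the member differences. The osteoclast sum was higher in KO at each time, while Mmp12, Mmp8 and Spp1 were called only at 24 h. Summed osteoclast markers had 107 to 155 CPM in KO against 57.2 to 73.6 CPM in WT at 0 h, 85.6 to 133 CPM against 43.3 to 58.4 CPM at 6 h, and 32.3 to 40.3 CPM against 8.79 to 15.9 CPM at 24 h. At 24 h, 3 of the 6 tested were higher in KO, the V-ATPase subunit gene Atp6v0d2 (2.93), the acid phosphatase gene Acp5 (1.46) and the cathepsin K gene Ctsk (1.6), and the fusion gene Dcstamp was lower (-1.55). Calcr, which defines osteoclasts, did not pass 2.02 CPM. Summed neutrophil markers at 24 h had 673 to 1002 CPM in KO against 215 to 431 CPM in WT, almost all from Lcn2 (655 to 976 CPM against 207 to 412 CPM), which activated macrophages also make. The defining neutrophil genes Elane, Mpo and Retnlg were at 0 in both groups at 24 h. At 6 h the neutrophil sum was lower in KO, at 40.6 to 73.2 CPM against 82.0 to 111 CPM in WT. Of 6 stimulation genes, 4 (Il6, Tnf, Il12b and Il1b) were higher and Cxcl9 lower in KO at 24 h. The part of these lists in the differences of the members was not tested.

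In F121A cells, the inhibitor Timp1 was higher than in WT at 6 h and 24 h, and the membrane protease Mmp14 at 6 h. Called members were 2 of 9 at 0 h, 5 of 9 at 6 h and 1 of 9 at 24 h, beside 2.94%, 11.5% and 7.2% of all genes. Timp1 had 52.5, 63.9 and 75.5 CPM in F121A against 16.6, 21.3 and 27.6 CPM in WT at 6 h, and 15.7, 20.5 and 22.8 CPM against 6.28, 7.13 and 10.2 CPM at 24 h. The groups did not overlap at either time. The log2 fold changes were 1.53 ± 0.16 (adjusted p = 5.56e-09) and 1.37 ± 0.18 (adjusted p = 7.5e-07), by edgeR's quasi-likelihood test. At 0 h both groups were near the floor, with a median of 0.173 CPM in F121A and 0.201 CPM in WT.

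Mmp14 was higher in F121A at 6 h, with 179, 279.5 and 301 CPM against 101, 136 and 164 CPM in WT and no overlap (log2 fold change 1.01 ± 0.15, adjusted p = 8.77e-06 by edgeR's quasi-likelihood test). At 24 h it had 47.4, 64.0 and 86.5 CPM in F121A against 65.5, 92.4 and 117 CPM in WT. That difference, -0.46 ± 0.15, had an adjusted p of 0.058, and of 0.0419 with DESeq2. The genotype effect on Mmp14 changed with time (adjusted p = 4.39e-05), one of 4 of 9 members with that call (8.29% of all genes), beside Mmp13 (0.0292), Mmp8 (0.0428) and Timp1 (0.048). Only the Mmp14 call held under each alternative. That of Mmp13 was lost with libraries summed in runs of numbers (adjusted p = 0.125) and without F121A 0 h library 5 (0.062). That of Mmp8 was lost with no filter (0.0609), with the replicate block (0.0563), with the conflicting labels left out (0.0627) and without TMM (0.133), and that of Timp1 with the last 3 of these (0.068, 0.0523 and 0.0924).

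Mmp12 was lower in F121A at 6 h: 506, 712 and 767 CPM against 882, 982 and 1229.6 CPM in WT, without overlap (log2 fold change -0.57 ± 0.15, adjusted p = 0.00608 by edgeR's quasi-likelihood test). Mmp8 was lower at 0 h, at 18.1, 20.9 and 23.2 CPM against 24.1, 28.1 and 30.9 CPM in WT, again without overlap (-0.41 ± 0.11, adjusted p = 0.0339, and 0.158 without TMM). At 6 h it was lower too, at 7.81, 13.3 and 16.7 CPM against 15.4, 20.5 and 21.7 CPM in WT, with slight overlap (-0.57 ± 0.13, adjusted p = 0.00229). Mmp19 was higher at 6 h, at 6.46, 7.61 and 10.1 CPM against 3.77, 4.96 and 6.37 CPM in WT (0.68 ± 0.19, adjusted p = 0.0138, and 0.0664 with no filter on low counts). Spp1 at 6 h was at -0.31 ± 0.11 (adjusted p = 0.0625, and 0.0353 with DESeq2). Sdc1 was not called at any time in F121A cells, nor was Timp2.

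Mmp13 was higher in resting F121A cells, by 1.13 ± 0.23 on the log2 scale (adjusted p = 0.00194 by edgeR's quasi-likelihood test, and 0.0581 when only the 2 groups were fitted). The 6 F121A libraries stood at 10.8, 13.2, 23.5, 38.3, 39.9 and 51.8 CPM, against a lowest, median and highest of 11.1, 11.7 and 17.9 CPM in WT. Of the F121A libraries, 4 lay above all WT libraries and 2 within or below the WT range. Stimulation genes moved the same way in these cells: their sum was 23 to 91.0 CPM in F121A against 15.6 to 34.1 CPM in WT at 0 h, and 5 of 6 (Cxcl9, Nos2, Il1b, Il12b and Il6) were called higher. Summed neutrophil markers were lower, at 15.7 to 35.5 CPM against 24.1 to 41.7 CPM in WT, with S100a9 (-1.0), S100a8 (-0.93) and Lcn2 (-0.84) called. Their part in the resting differences of Mmp13 and Mmp8 was not tested. At 6 h Mmp13 did not pass the test in F121A (0.27 ± 0.21, adjusted p = 0.486).

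At 24 h in KI, the WT libraries fell into a high and a low set for Mmp12 (635, 511 and 592 CPM in libraries 2, 4 and 6, against 364, 301 and 282 CPM in libraries 1, 3 and 5). Sdc1 split the same libraries, at 281, 249 and 267 CPM and at 164, 163 and 138 CPM. The F121A libraries lay between or within these sets, at 346 to 447 CPM for Mmp12 and 176 to 216 CPM for Sdc1, and neither gene was called.

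**Figure D3:**
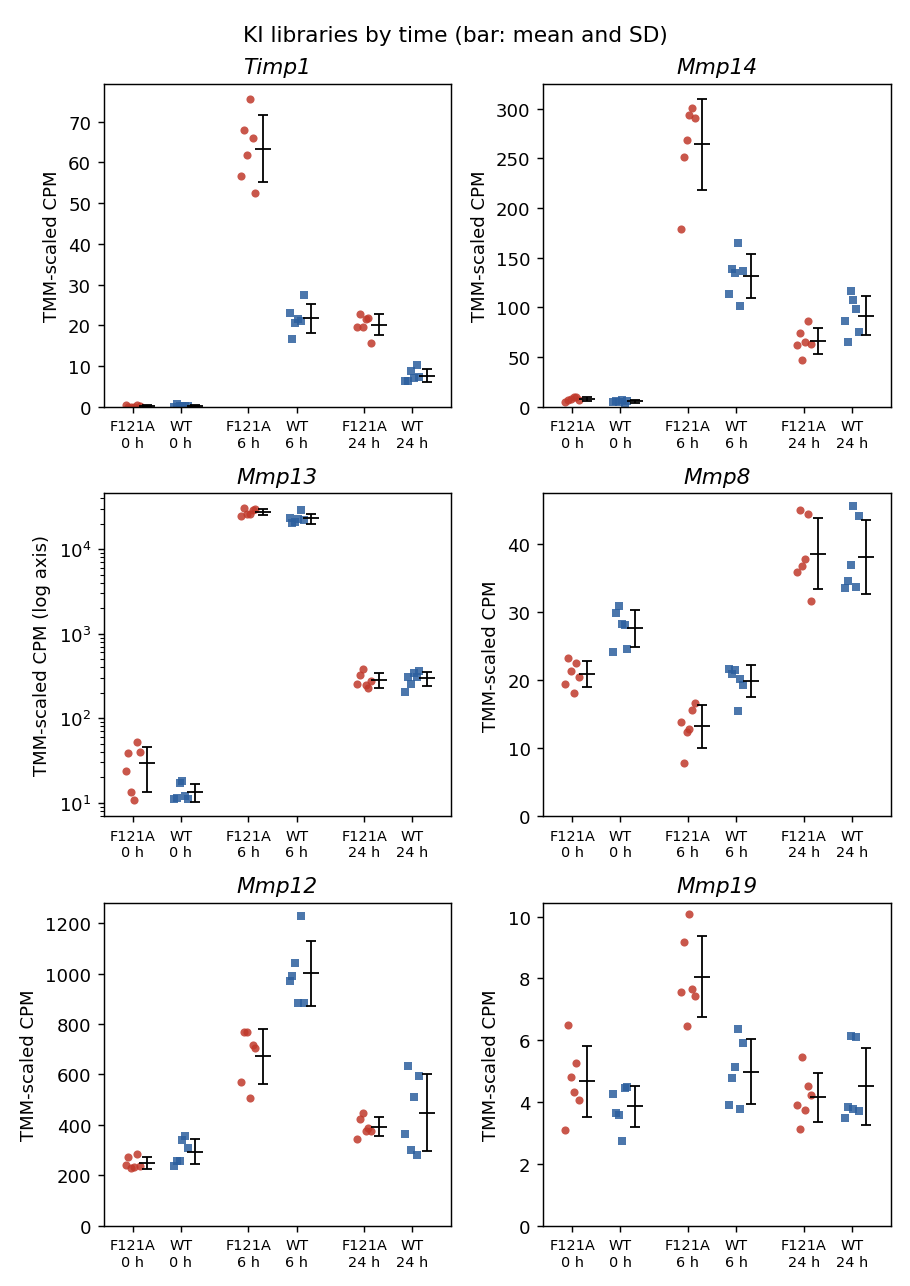
CPM of Timp1, Mmp14, Mmp13 (log axis), Mmp8, Mmp12 and Mmp19 in the KI cohort at 0, 6 and 24 h, F121A libraries left of WT libraries at each time. Timp1 in F121A lies above WT at 6 h (52.5 to 75.5 against 16.6 to 27.6 CPM) and at 24 h.

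In KO1, with 3 sources per genotype, no member was called at any time by edgeR's quasi-likelihood test, beside 0.0219%, 0.0219% and 0.0073% of all genes at 0, 6 and 24 h. DESeq2 called none of the 10 either. Genotype by time was called for 0 of 10 members and 0% of all genes. Values of the genes that stood out in KO2 are given for comparison. Mmp12 at 24 h had 57.5, 193 and 54.9 CPM in KO sources S36 to S38 against 34.2, 36.8 and 28.2 CPM in WT sources S33 to S35, and all KO values lay above WT. Mmp8 at 24 h had 19.6, 15.6 and 14.1 CPM in KO against 5.74, 6.03 and 10.9 CPM in WT, likewise without overlap. With 3 sources per genotype, a lack of overlap can readily arise by chance, here and for the KO1 values below. The log2 fold changes were 1.62 ± 0.63 for Mmp12 (adjusted p = 0.642) and 1.12 ± 0.47 for Mmp8 (adjusted p = 0.665). Without S37, whose 193 CPM was far above the other KO sources, the Mmp12 value was 0.77. With no filter on low counts, Mmp12, Mmp8 and Timp1 at 24 h and Mmp14 at 0 h were called in KO1 (adjusted p = 7.05e-05, 0.00742, 0.00172 and 0.0295). Their log2 fold changes hardly moved in that fit (1.62 for Mmp12 and 1.13 for Mmp8). Calls over all genes in KO1 rose in it too, as given below, and the cause was not tested.

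Spp1 at 24 h in KO1 had 106, 386 and 84.3 CPM in KO against 111, 58.0 and 63.4 CPM in WT, with overlap at the WT source S33 (1.31 ± 0.68, adjusted p = 0.752 by edgeR's quasi-likelihood test). Mmp13 at 24 h had 139, 59.2 and 116 CPM in KO against 116, 36.6 and 48.0 CPM in WT, and Timp1 28, 24.1 and 12.8 CPM against 16.8, 5.56 and 5.35 CPM, with overlap in both. Sdc1 at 24 h had 63.9, 65.0 and 73.2 CPM in KO against 45.3, 48.6 and 76.7 CPM in WT, and at 0 h it was lower in all KO sources, at 16.1, 19.5 and 17.9 CPM against 23, 26.9 and 23.9 CPM (-0.46 ± 0.27, adjusted p = 0.866). Mmp14 at 0 h had 16.5, 10.4 and 16.8 CPM in KO against 8.50, 4.5 and 7.70 CPM in WT, without overlap (1.08 ± 0.32, adjusted p = 0.395). Source S37 had the highest KO value for Mmp12, Spp1 and Timp2 at 0 h and at 6 h. Its Mmp12 at 0 h was 658 CPM, beside 113 and 134 CPM in S36 and S38. The log2 fold change at 0 h, 0.80 for Mmp12 and 0.47 for Mmp8, was -0.49 and -0.29 without S37, and none of these was called. Summed neutrophil markers in KO1 were 207 to 692 CPM in KO against 106 to 156 CPM in WT at 0 h and 339 to 1271 CPM against 115 to 308 CPM at 24 h, and their part in these values was not tested.

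**Figure D4:**
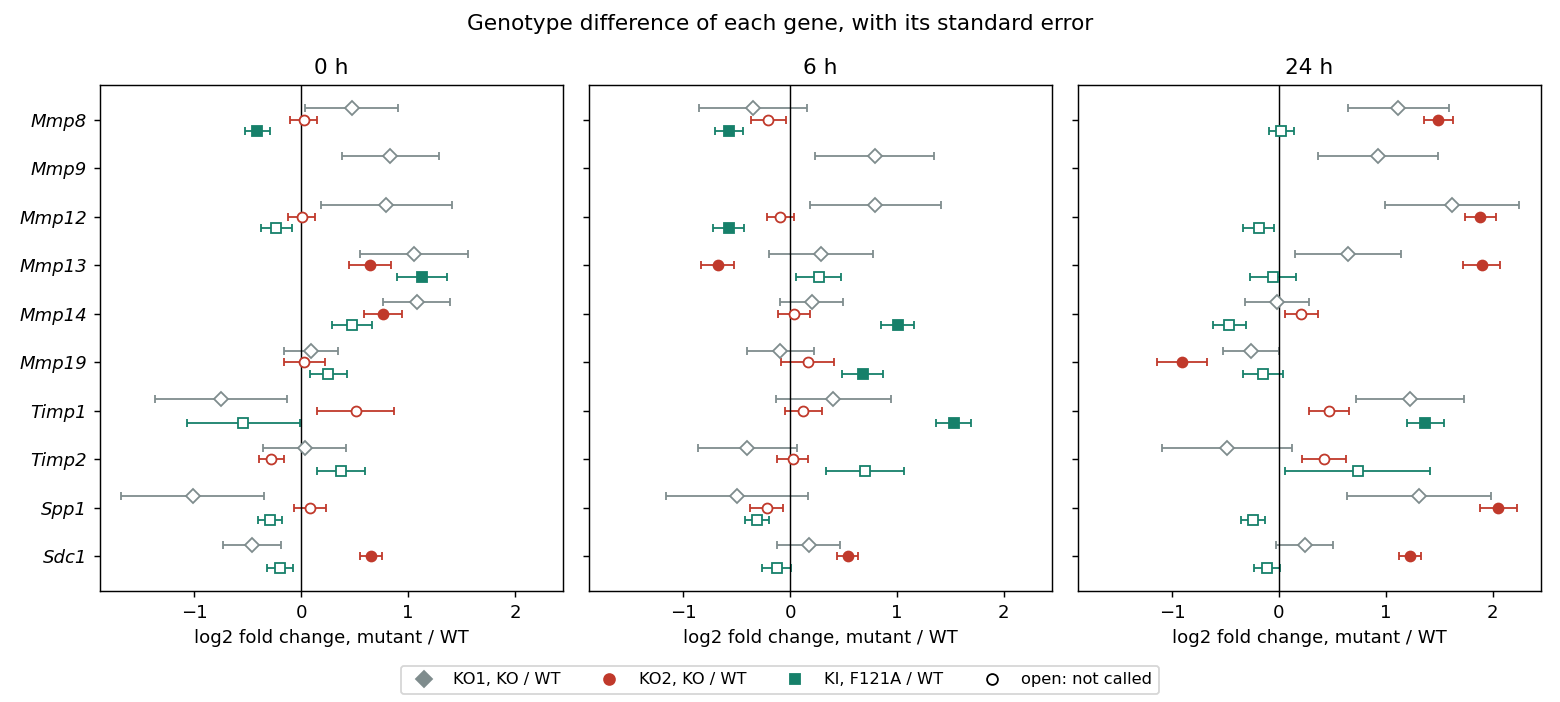
Log2 fold change of mutant over WT with its SE for the 10 genes at 0, 6 and 24 h, in KO1 (grey diamonds), KO2 (red circles) and KI (green squares), with open symbols where the adjusted p was not under 0.05. At 24 h the KO2 values of Spp1 (2.05), Mmp13 (1.90) and Mmp12 (1.89) stand apart from those of KI, and Timp1 (1.37) is the called gene of KI.

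Whether the genotype effects differ was tested in a joint fit of all cohorts. Mmp9, too low to be tested in KO2 and KI alone, passed the filter of that fit and was not called. The first difference taken was the KO2 effect minus the KI effect. At 24 h it was called for 5 of 10 members (4.82% of all genes), the same 5 that rose in KO2: Spp1 (2.27, adjusted p = 6.54e-07), Mmp12 (2.05, adjusted p = 1.63e-06), Mmp13 (1.93, adjusted p = 4.7e-06), Mmp8 (1.44, adjusted p = 1.12e-05) and Sdc1 (1.31, adjusted p = 4.07e-08), all higher in the KO2 knockout, by edgeR's quasi-likelihood test. At 6 h 4 of 10 were called (8.97% of all genes): Timp1 (-1.37, adjusted p = 0.000814), Mmp14 (-0.93, adjusted p = 0.00483), Mmp13 (-0.90, adjusted p = 0.0492) and Sdc1 (0.70, adjusted p = 0.00756). The Mmp13 call was lost with the conflicting labels left out (adjusted p = 0.0647) and without TMM (adjusted p = 0.151). At 0 h only Sdc1 was called (0.84, adjusted p = 0.0019, 1 of 10, 2.15% of all genes). Between the knockout cohorts, as the KO2 effect minus the KO1 effect, Sdc1 alone was called, at 0 h (1.12, adjusted p = 0.00202, 0.703% of all genes) and at 24 h (0.97, adjusted p = 0.0208, 0.299%; adjusted p = 0.281 without S35, 0.0882 without S36, 0.13 with no filter and 0.112 without TMM), with 0 of 10 called at 6 h (0.681%, edgeR). Mmp13 at 24 h had a difference of 1.25 (adjusted p = 0.25), and Spp1 at 24 h was called without S37 (1.75, adjusted p = 0.00664). The joint fit shares its estimate of spread across cohorts. Its SE for Sdc1 at 0 h (0.23) was below that of the KO1 effect alone (0.27), and for Spp1 at 24 h likewise (0.42 against 0.68). The p-values of differences from KO1 may therefore be too small.

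Other genes of the same chromosome 9 cluster were mostly silent. Of the 10 genes in it, 4 passed the filter on low counts in KO2: Mmp13, Mmp12, Mmp8 and Mmp27. All 4 were called higher in KO at 24 h, beside 6.26% of all genes. Mmp13, Mmp12 and Mmp8 are the members for which the cluster was examined, so that count is a description. Mmp27, a little-studied member of the family, had 1.66, 3.99 and 5.90 CPM in KO against 0.269, 1.30 and 2.2 CPM in WT (1.5 ± 0.32, adjusted p = 0.000441 by edgeR's quasi-likelihood test). At so low a WT level, Mmp27 may have passed the filter through its KO libraries only. None of these 4 was called in KI at 24 h.

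**Figure D5:**
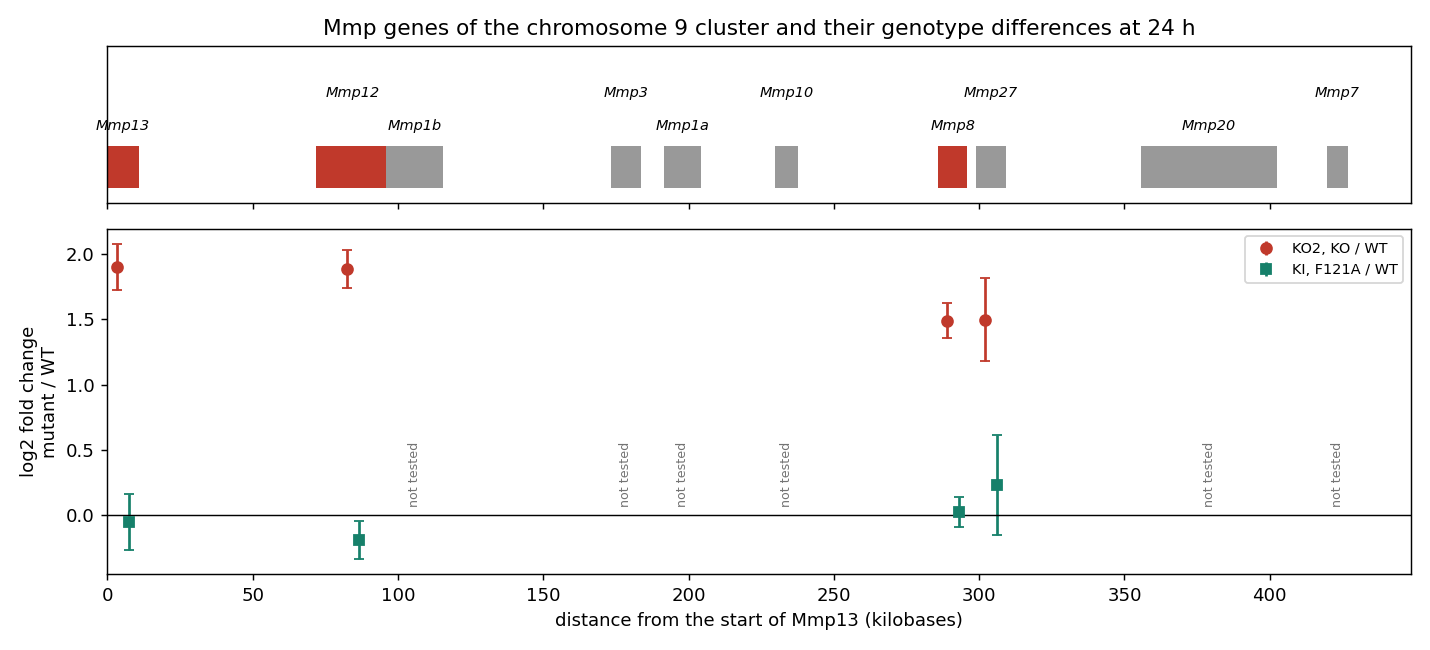
Log2 fold change of mutant over WT at 24 h with its SE for the 10 Mmp genes of the chromosome 9 cluster, by distance in kb from the start of Mmp13, in KO2 (red) and KI (green), with genes too low to test marked, and Mmp13, Mmp12 and Mmp8 as red boxes on the map. The tested genes Mmp13, Mmp12, Mmp8 and Mmp27 lie between 1.49 and 1.90 in KO2.

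Of the 17 metalloprotease genes outside the 10, only 5 were tested in KO1, 3 in KO2 and 3 in KI. Mmp25, a protease anchored to leukocyte membranes, was lower in KO2 KO cells at 6 h (-0.64, adjusted p = 0.00249) and higher in F121A cells at 6 h (0.96, adjusted p = 1.92e-05). Of 8 other regulators, 3 were tested in KO2, and Furin, which cuts the precursor of Mmp14, was lower in KO2 KO at 6 h (-0.47, adjusted p = 0.00292) and higher in F121A cells at 6 h (0.56, adjusted p = 0.00133). Among the syndecans, Sdc3 was lower in KO2 KO at 6 h (-0.33, adjusted p = 0.0129) and 24 h (-0.30, adjusted p = 0.0317) while Sdc1 was higher, and it was higher in F121A at 0, 6 and 24 h (0.58, 0.75 and 0.45, adjusted p = 0.00399, 6.33e-05 and 0.0185). All these values are from edgeR's quasi-likelihood test.

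Of 8 osteopontin receptor genes, 1 was called in KO2 at 24 h, the integrin subunit gene Itga9 (2.08 ± 0.25, adjusted p = 3.21e-09, higher in KO), and the median of the list was -0.02, as in all genes. In F121A cells at 6 h Itgb1 was higher (0.48) and Cd44 lower (-0.36). In the plasminogen system, whose product plasmin activates metalloprotease precursors, 3 of 5 genes were higher in KO2 KO at 6 h, namely Plat (1.59), Plau (1.16) and Serpinb2 (0.95), and 3 of 5 at 24 h, Serpinb2 (2.75), Plau (1.37) and Plaur (0.43). Their median was 0.95 and 0.43, beside 0.02 and -0.02 over all genes. Of 7 cathepsins, Ctsk (1.6) and Ctsl (0.60) were higher and Ctsh (-0.59) and Ctsc (-0.59) lower in KO2 KO at 24 h. Of 8 tested transcription factor genes of the AP-1, ETS and related families, Fos (-0.66), Junb (-0.57) and Jun (-0.43) were lower in KO2 KO at 6 h. At 24 h, Fos (-0.77) and Jun (-0.46) were lower and Fosl2 (0.54) and Ets2 (0.46) higher in KO2 KO.

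The genes whose pattern over the 18 group means was most like that of a member, by Pearson's r of log2 CPM centred within each cohort over 6030 or 6031 genes, were Sdc4 and Ncoa5 for Mmp13 (both 0.992), Slco3a1 and Fam26f for Mmp14 (both 0.993), Gas6 (0.986) and Syngr1 (0.985) for Timp2, Bambi-ps1 (0.970) and Il4ra (0.969) for Timp1, and Ctla2a (0.953) and Lpl (0.946) for Spp1. Likeness was lower for Sdc1 (Auh at 0.943 and Mafg at 0.942), Mmp8 (Samd8 at 0.893 and Orc3 at 0.873), Mmp12 (Sc5d at 0.890 and Fam46c at 0.880) and Mmp19 (Ttc33 at 0.826 and Nsf at 0.815), and lowest for Mmp9 (S100a8 at 0.796 and Slc25a5 at 0.705), which was near the floor in KO2 and KI. The group means share the time course, so these values are a description.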

How the data were processed

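Macrophage RNA was sequenced with Smart-Seq2, which primes with oligo-dT, per the labels' protocols, in paired reads without strand or molecular identifiers. The authors deposited whole-number counts per gene symbol and library, 1 table per cohort. Per the submitters' processing notes the tools were TopHat and HTSeq and the genome build mm10, with versions and annotation not given in the sources used here. Within each cohort, counts were filtered with filterByExpr, scaled by TMM and fitted with edgeR 4.0.16 (R 4.3.3, quasi-likelihood, 1 mean per genotype and time), with Benjamini-Hochberg adjustment over the 13693, 10794 and 11500 genes tested in KO1, KO2 and KI. A joint fit of 13369 genes gave differences between cohorts. Calls need an adjusted p under 0.05, and standard errors were taken as |log2 fold change| divided by √F.

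In 2 libraries the time differs between label fields, and the title was used. Over 467 pairs of libraries of a group none looked like a copy (smallest chi-square per degree of freedom 2.79). KO1 source numbers paired times by the correlation of deviations from group means (over 0.1 for all 3 numbers) for KO at 6 h and 0 h (0.113 to 0.344), KO at 24 h and 6 h (0.297 to 0.430) and WT at 6 h and 0 h (0.174 to 0.518), and blocked values are given beside those results where the call changes. On simulated counts at 24 h, the fit recovered 30% (2-fold changes) and 77% (4-fold) of changed genes in KO1 over 13251 genes, 84% and 94% in KO2 over 10554, and 73% and 96% in KI over 11358. It called 2, 10 and 10 unchanged genes there. The simulation left out the quasi-likelihood spread of each gene, so recovery may be lower for variable genes. Members, gene lists and tests were chosen with earlier results of these data known. The 10 members are always named. Of each other list, at most 3 called genes of smallest adjusted p in a comparison are named, or all where 5 or fewer were called, and for each member the 2 genes of most similar pattern among genes whose log2 CPM averaged 3 or more.

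As alternatives, DESeq2 1.42.0 was run, and edgeR with DESeq2's size factors, with no filter, with library totals without TMM, with only the 2 groups compared, the number as a replicate block, the conflicting libraries left out and each KO1 source left out. Summing libraries and leaving out F121A library 5 at 0 h were added after seeing the data. The sums joined runs of neighbouring library numbers that the labels do not define, in KO2 1 and 2, 4 to 6 and 7 to 9. In KI the runs were 1 and 2, 3 and 4, and 5 and 6.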

Additional observations from a re-analysis of the deposited data

Results flagged for a closer look

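In 12 of 120 groups of 6 to 8 libraries tested, 1 library stood far from the rest by Dixon's rule. The rule flags about 1 in 20 groups of independent, normally distributed values. These groups share libraries between genes, and those of Mmp9 hold few reads, so the count cannot be set against that rate. In KO2 KO cells at 6 h, Mmp13 had 1785 CPM and Mmp14 868 CPM in library 7, and Mmp12 had 504.7 CPM and Spp1 1453 CPM in library 2. In KO2 KO cells at 24 h, Mmp14 had 375 CPM in library 9. In KO2 WT cells at 6 h, library 2 had 4427 CPM of Mmp13 and 45.6 CPM of Sdc1, both the lowest of their group. In KI WT cells at 6 h, Mmp13 had 28920 CPM in library 5. Mmp9, at a few reads, stood out at 0.326 CPM in KO2 KO library 9 at 0 h, 1.38 CPM in WT library 9 at 0 h, 3.51 CPM in WT library 4 at 6 h and 1.88 CPM in WT library 9 at 24 h.

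Genotype effects differed between times or cohorts in 22 tests by edgeR's quasi-likelihood test. Genotype by time in KO2 had adjusted p = 1.37e-12 for Mmp12, 5.36e-12 for Mmp13, 3.06e-11 for Spp1, 1.3e-09 for Mmp8, 0.000788 for Sdc1 and 0.0331 for Mmp19, and in KI 4.39e-05 for Mmp14, 0.0292 for Mmp13, 0.0428 for Mmp8 and 0.048 for Timp1. Of these, Sdc1 in KO2 (0.0655 without TMM) and Mmp13 (up to 0.125), Mmp8 (up to 0.133) and Timp1 (up to 0.0924) in KI were not called under some alternatives. The KO2 effect minus the KI effect (log2) at 24 h was 2.27 for Spp1, 2.05 for Mmp12, 1.93 for Mmp13, 1.44 for Mmp8 and 1.31 for Sdc1, at 6 h -1.37 for Timp1, -0.93 for Mmp14, -0.90 for Mmp13 and 0.70 for Sdc1, and at 0 h 0.84 for Sdc1. The KO2 effect minus the KO1 effect was 1.12 at 0 h and 0.97 at 24 h for Sdc1, in the joint fit whose estimate of spread is shared across cohorts. No cause of these was tested, and sex, which cannot be told apart from genotype in KO2, enters each difference that uses that cohort.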

How the results depend on the processing

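Of 340 values of members, 332 kept their side of the threshold, and their direction where called, under DESeq2, 334 under its size factors in edgeR, 319 with no filter and 297 with library totals without TMM. With only the 2 groups compared 235 of 247 did, with the replicate block 227 of 240, and with the conflicting libraries left out 245 of 250. The 13 reversals of a value called in either fit all came without TMM: Mmp19 at 24 h over 0 h in WT of KO1 (-0.96) and KI (-0.64) and at 6 h over 0 h in WT (-0.84) and F121A (-0.51) of KI, Mmp12 at 6 h over 0 h in KO (-0.62) and WT (-0.57) of KO2 and at 24 h over 0 h in F121A (-0.30) and WT (-0.27) of KI, Spp1 at 6 h over 0 h in F121A (-0.57) and WT (-0.44) of KI, Mmp8 at 24 h over 0 h in F121A (-0.0705) and WT (-0.42) of KI, and Sdc1 at 24 h over 0 h in WT of KO2 (-0.34). None of these 13 is a comparison of genotypes. A further 62 values turned sign with neither fit calling them, 41 of them between genotypes, such as Mmp12 and Mmp8 in KO1 at 0 h without S37 (-0.49 and -0.29) and Mmp13 in KO1 at 6 h without S36 (-0.19). The cause was not tested.

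The number of members called moved by over 1.5 times as follows, sources left out aside. In KO1, KO against WT with no filter called 1 at 0 h and 3 at 24 h, genotype by time with no filter called 2, and KO at 24 h over 0 h without TMM called 10. In KI at 0 h it was 1 with only the 2 groups compared and without TMM. In KI at 24 h it was 2 with no filter, with DESeq2, with only the 2 groups compared, with the replicate block and without F121A library 5. KI genotype by time called 2 with the replicate block, with the conflicting libraries left out and without TMM. The KO2 effect minus the KO1 effect at 24 h called 0 with no filter and without TMM. The cause of these changes was not tested.

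Leaving out 1 KO1 source at a time, the members called ranged from 0 to 0 in KO against WT at each time, in genotype by time and in the KO2 effect minus the KO1 effect at 6 h. In that difference it ranged from 1 to 2 at 0 h and from 0 to 2 at 24 h. Over time they ranged in KO from 6 to 7 (6 h over 0 h), 6 to 7 (24 h over 0 h) and 4 to 9 (24 h over 6 h), and in WT from 5 to 7, 6 to 8 and 6 to 7.

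Library numbers did not pair the groups compared in KO2 and KI by the rule that all numbers pass 0.1. In KI, F121A at 24 h and 6 h (0.0639 to 0.244) and F121A and WT at 6 h (-0.0229 to 0.182) each passed it for 5 of 6 numbers. F121A at 6 h and WT at 24 h, which were not compared, had correlations over 0.1 for all 6 numbers (0.113 to 0.290). With them as a replicate block, Timp1 in KO2 at 24 h (0.54, adjusted p = 0.0314), Mmp14 in KI at 24 h (-0.46, adjusted p = 0.0438), Spp1 in KI at 6 h (-0.31, adjusted p = 0.0403) and Mmp14 in KO2 by time (adjusted p = 0.0203) passed edgeR's test, and Mmp8 (0.0563) and Timp1 (0.068) in KI by time did not. In WT at 6 h over 0 h, Mmp12 in KO2 (0.26, adjusted p = 0.0143) and Sdc1 in KI (-0.29, adjusted p = 0.0358) passed, the Sdc1 value as under every other alternative. In KO1, where 24 h and 0 h did not pair, Mmp8 in WT (-0.96, adjusted p = 0.0354) and Mmp12 in KO (-1.37, adjusted p = 0.000267) passed for that step. The block changed no other call.

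Over all genes, calls of KO against WT in KO1 went with the fit: 3 at 0 h became 32 with DESeq2, 154 with no filter, 0 with only the 2 groups compared and 0 to 40 without 1 source. At 6 h 3 became 5, 72, 0 and 0 to 4, and at 24 h 1 became 6, 86, 3 and 0 to 8, and 0 without TMM. KO1 genotype by time called 0 genes, 10 with DESeq2 and 45 with no filter. Without TMM, calls at 24 h over 0 h in KO1 were 9878 for 5269 in KO and 9792 for 5743 in WT, in KO2 at 6 h 2522 for 1659, and in KI genotype by time 576 for 953. KO2 at 0 h called 564 for 894 with libraries summed in runs of numbers. The KO2 effect minus the KO1 effect at 0 h called 94 genes, 164 with DESeq2, 61 without TMM and 58 to 169 without 1 source, and at 6 h 91, with 38 to 319.

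Scaling also moved the balance of calls over all genes. In KO2, KO against WT called 414 higher and 480 lower at 0 h and 823 and 836 at 6 h, and without TMM 1008 and 165, and 2186 and 336. In KI, F121A against WT called 272 and 66, 921 and 401, and 393 and 435 at the 3 times, and without TMM 287 and 26, 559 and 397, and 186 and 383.

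Depth limits Mmp9 in KO2 and KI, Timp1 at rest in KI and Timp2 at 24 h in KI.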
